A study of Mus musculus with 8 samples.

Results

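RNA-seq of *Arid1a* KO and WT tumors that had both been treated with JSH-23 was compared, to describe what the genotype still changed while NF-κB was inhibited. The comparison used 4 of the 8 samples of the series, chosen by their genotype and treatment labels, with 2 samples for each genotype. The tumors grew from Myc-CaP, a *Myc*-driven line of mouse prostate carcinoma from the FVB strain, that carried either a control vector (labelled Myc-CaP EV, called WT here) or a guide RNA against *Arid1a* delivered with the CRISPR nuclease (Myc-CaP Arid1a KO). Cells were inoculated under the skin of male FVB mice aged 6 weeks. From day 16 the mice received JSH-23 in DMSO and corn oil by gavage every day for 2 weeks, and the vehicle groups, 2 samples per genotype, received corn oil. The study's figure legend names these vehicle arms by DMSO, so whether they also received DMSO is uncertain here. All groups therefore shared the line, host strain and schedule, and EpCAM+ CD45- cells were sorted from the tumors for sequencing. The labels do not say whether the KO cells were a pool or 1 clone, or whether the 2 samples of a group came from separate mice, so p-values measure the spread between these samples, which may be technical.

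ARID1A is the DNA-binding subunit of the BAF form of SWI/SNF, the complex that moves nucleosomes at enhancers and promoters, and it is frequently lost in cancer. NF-κB is a family of transcription factors, held in the cytoplasm by IκB proteins, that enters the nucleus after inflammatory signals and induces chemokines, cytokines and its own inhibitors. JSH-23 is a small molecule that blocks the nuclear entry of the p65 subunit. Among the NF-κB targets are the ligands of CXCR2, the receptor that draws neutrophils and myeloid-derived suppressor cells into tumors.

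The 4 JSH-23 libraries held between 16401581 and 21972231 counts assigned to genes, and 3 counts, the lowest level told from 0, corresponded to 0.137 to 0.183 CPM (counts scaled to a common library size with TMM factors). Such limits cover counting error only. Markers of the sorted cells were checked first, and they went against the label in part: *Epcam* had between 0 and 4 counts in each of the 8 libraries, *Cdh1* between 1 and 19 and *Krt18* between 4 and 18, whereas *Krt8* had between 540 and 2308. Markers of other cells were mostly near 0. *Ptprc*, the gene for CD45, had at most 10 counts and *Cd3e*, *Nkg7*, *S100a8*, *S100a9* and *Ly6g* at most 2 in any library. The main exceptions were *Lyz2*, *Cd68*, *Pdgfra*, *Fabp4* and *Hba-a1*. One library stood apart from its replicate. WT sample 2 with JSH-23 held 0 counts of *Itgam* against 12 in WT sample 1, 1 of *Csf1r* against 15 and 85 of *Lyz2* against 190, and it held 51 counts of the neurofilament gene *Nefl* against 0. The 12 leukocyte markers summed to 18.4 and 10.3 CPM in WT and 13.2 and 10.1 CPM in KO samples with JSH-23, where *Ly6g* was at 0 throughout. Of the 4 tested, *Cd68* was higher and *Lyz2* and *Itgam* were lower in KO. The *Itgam* call rested on WT sample 1, as counts were 12 and 0 (WT) and 1 and 0 (KO) and the groups overlapped. Results that rest on genes of this kind are given below without the library concerned.

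*Arid1a* lies on chromosome 4 of GRCm38/mm10 (133679008 to 133756769, minus strand). Its level with JSH-23 was 145 and 155 CPM in WT and 94.5 and 96.1 CPM in KO samples. The groups did not overlap, and the log2 fold change was -0.65 (standard error 0.037, adjusted p = 2.14e-25, where p-values come from quasi-likelihood tests in edgeR and were adjusted by the Benjamini-Hochberg method over the 13921 genes tested). With vehicle the log2 fold change was -0.60, and the difference between the 2 effects did not pass the test of the interaction (-0.047, standard error 0.052, adjusted p = 0.509). A guide RNA typically shifts the reading frame rather than removing the transcript, so the remaining reads give no measure of protein. A decrease of 1.5-fold was at the limit for this gene: after a trend of fold change with gene length had been removed, its log2 fold change was -0.53, short of 1.5-fold.

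Of the 25 SWI/SNF subunit genes tested, *Arid1a* was the only one called with JSH-23, where a call required a 1.5-fold change and an adjusted p under 0.05. Over all genes tested 4.81% were called lower and 3.82% higher, so this count is near the share of all genes. The median log2 fold change of the list was -0.084, beside -0.0036 over all genes tested. The paralogue *Arid1b*, whose product can take the place of ARID1A in the complex, measured 113 and 111 CPM in WT and 83.5 and 90.7 CPM in KO samples (log2 fold change -0.37). The ATPase genes measured 0.15 (*Smarca4*) and -0.43 (*Smarca2*) on the log2 scale. *Dpf1*, a subunit of the neuronal form, had the highest value of the list at 0.40, against -0.29 with vehicle (interaction 0.70, adjusted p = 6.28e-18).

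With JSH-23, 532 genes (3.82% of those tested) had a higher and 670 (4.81%) a lower level in tumors that had lost *Arid1a*. The median change of called genes was 1.86-fold upwards and 1.83-fold downwards, and 225 of the higher and 261 of the lower genes passed 2-fold. Calls fell mostly on weakly expressed genes: their mean level had a median of 4.74 CPM for higher and 4.75 CPM for lower genes, against 25.1 CPM over all genes tested. Of the 4589 genes that averaged at least 50 CPM, 79 were higher and 49 lower. Replicates lay close together, and the biological coefficient of variation common to all genes was 1.57%. At a coefficient of 0.2, set by hand to a size usual for separate animals, 126 higher and 130 lower genes were called. The split of the calls depended on the scaling. It was 44.3% higher with TMM factors, 29.7% with library size alone and 15.9% with limma on log2(TPM + 1), where the median of all genes moved to -0.088 and -0.16 on the log2 scale.

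The same genotypes with vehicle gave 1041 higher (7.48%) and 720 lower genes (5.17%), from 4 libraries that the JSH-23 comparison did not use. A total of 251 genes were higher in KO in both, which is 47.2% of those higher with JSH-23 and 24.1% of those higher with vehicle. Lower in both were 210 genes, 31.3% and 29.2% of the respective lists. The 1041 genes higher with vehicle had a median log2 fold change of 0.98 there and of 0.34 with JSH-23. For the 720 genes lower with vehicle the medians were -0.86 and -0.39. Genes picked by their JSH-23 values also had medians nearer 0 in the other treatment. For the 532 higher genes they were 0.90 with JSH-23 and 0.61 with vehicle, and for the 670 lower genes -0.87 and -0.38. Each set was picked on 1 of the 2 contrasts, so these medians do not measure an effect of the treatment. Of the 532 genes higher with JSH-23, 453 had a vehicle value above 0, and of the 670 lower genes 506 had one below 0. Across the 10109 genes that averaged at least 5 CPM, the 2 sets of fold changes had a Pearson r of 0.49, a description across genes that share the fitted spread and are not independent.

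**Figure D1:**
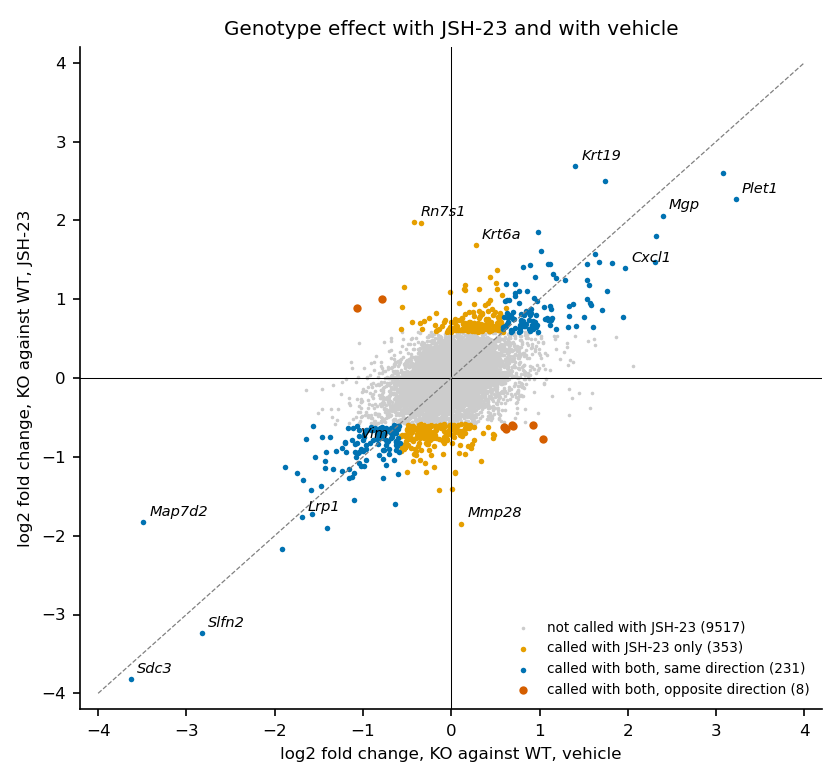
Log2 fold change of *Arid1a* KO against WT tumors with vehicle (x axis) and with JSH-23 (y axis) for the 10109 genes that averaged at least 5 CPM in the JSH-23 samples, each point a gene, coloured by its calls, with the dashed line marking equal effects. *Sdc3*, *Slfn2* and *Mgp* lie near that line, while *Rn7s1* and *Mmp28* lie far above and below it.

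Where genes averaged at least 5 CPM over the JSH-23 samples, the largest rise in KO tumors with JSH-23 was that of *Krt19*, a keratin of simple and luminal epithelium (chromosome 11, 100140810 to 100145926, minus strand). It measured 11.6 and 13.8 CPM in WT and 80.3 and 83.1 CPM in KO samples, a 6.45-fold difference (log2 2.69, standard error 0.070). *F5*, which encodes coagulation factor V, measured 1.90 and 1.94 CPM in WT and 10.9 and 12.4 CPM in KO samples, and *Crisp1*, a secreted protein of the male tract, 5.76 and 4.79 CPM in WT and 29.7 and 30.2 CPM in KO samples. Both KO samples were more than 5 times the WT samples for each of the 3 genes. *Mgp*, an inhibitor of matrix calcification, measured 25.2 and 26.9 CPM in WT and 108 and 109 CPM in KO samples. Levels of *Plet1*, a surface protein of epithelial progenitors, were 1.96 and 2.97 CPM in WT and 11.5 and 12.2 CPM in KO samples, and those of *Ngfr*, the p75 neurotrophin receptor, 2.91 and 2.49 CPM in WT and 9.36 and 9.52 CPM in KO samples. *Ehf*, an epithelial ETS transcription factor, measured 8.28 and 8.37 CPM in WT and 25.4 and 24.3 CPM in KO samples. The same 12 genes included the keratins *Krt15*, *Krt6a* and *Krt8* and both 7SL RNA genes, which are described below. In 9 of the 12 the rise was also called with vehicle, with log2 fold changes there from 0.99 (*Krt15*) to 3.22 (*Plet1*); the others were *Rn7s1*, *Rn7s2* and *Krt6a*.

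Among the genes that fell and averaged at least 5 CPM, *Sdc3*, the gene for syndecan 3, a heparan sulfate proteoglycan of the cell surface, had the largest decrease (chromosome 4, 130792537 to 130826318, plus strand). It measured 27.8 and 25.1 CPM in WT and 1.58 and 2.12 CPM in KO samples, a 14.2-fold difference (log2 -3.82, standard error 0.14), with a value of -3.63 with vehicle. *Slfn2*, a regulator of lymphocyte quiescence, measured 19.2 and 18.9 CPM in WT and 1.74 and 2.26 CPM in KO samples. *Defb1*, an epithelial antimicrobial peptide, was at 8.002 and 9.09 CPM in WT and 1.80 and 1.97 CPM in KO samples. The laminin chain gene *Lamc3* measured 63.7 and 62.3 CPM in WT and 15.6 and 18.1 CPM in KO samples, and *Lrp1*, an endocytic receptor for proteases and lipoproteins, 297 and 292 CPM in WT and 87.2 and 86.9 CPM in KO samples. *Syt7*, a calcium sensor for exocytosis, was at 309 and 306 CPM in WT and 105 and 105 CPM in KO samples. For all of these the 2 KO samples lay within 1.34-fold of each other. They also lay below both WT samples, which was a condition for choosing the genes. *Fmo1*, a flavin monooxygenase, and *Ptpn22*, a phosphatase of immune receptor signalling, fell 3.31-fold and 3.03-fold. *Map7d2*, a microtubule-associated protein, fell 3.54-fold with JSH-23 and further with vehicle (log2 -1.82 and -3.49). *Lyz2*, a lysozyme gene of myeloid cells, measured 10.6 and 5.15 CPM in WT and 3.70 and 2.31 CPM in KO samples. WT sample 2 was 2.06 times lower than WT sample 1 for this gene, and the log2 fold change was -1.42 with all libraries, -0.80 without WT sample 1 and -1.85 without WT sample 2.

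**Figure D2:**
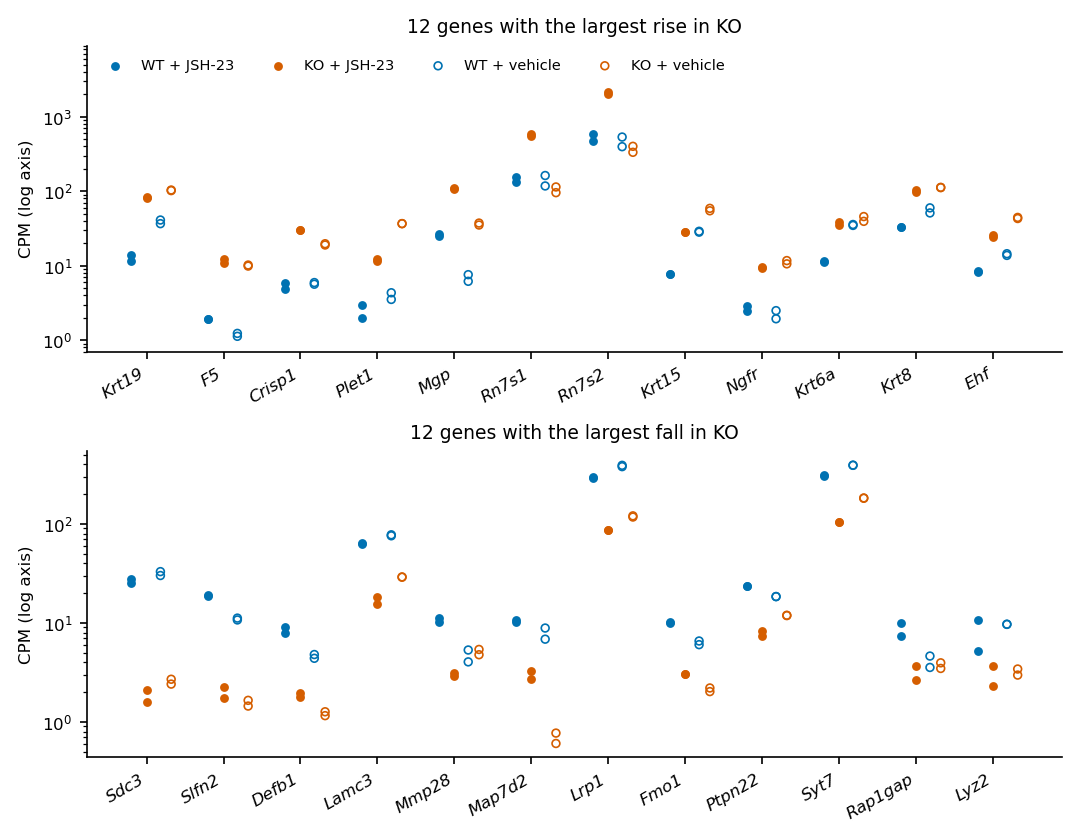
CPM (log axis) of the 12 leading rises and 12 leading falls that came with *Arid1a* KO in JSH-23 tumors, each point a sample, filled for JSH-23 and open for vehicle, blue for WT and orange for KO. Filled blue and orange points do not overlap for any of the 24 genes, which was a condition for choosing them. For *Rn7s1*, *Rn7s2*, *Krt6a*, *Mmp28* and *Rap1gap* the open points of both genotypes lie close together.

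By CPM, which is not divided by gene length, the most abundant higher genes were *Bsg*, *Rn7s2*, *Anxa2*, *Top2a*, *H1f0* and *Lonp1*. *Bsg*, which encodes basigin, the partner of lactate transporters, measured 1390 and 1402 CPM in WT and 2262 and 2265 CPM in KO samples. *Anxa2*, a calcium-dependent membrane-binding protein, was at 790.4 and 785 CPM in WT and 1276 and 1252 CPM in KO samples, and the mitochondrial protease gene *Lonp1* at 543 and 539 CPM in WT and 889 and 889 CPM in KO samples. Changes in this group were near the 1.5-fold limit, from 1.505-fold for *Top2a* to 1.64-fold for *Lonp1*, apart from *Rn7s2*. The most abundant lower genes were *Vim*, *Hipk2*, *Prrc2b*, *Gpnmb*, *Tigit* and *Rnf145*. *Gpnmb*, a melanosomal glycoprotein also made by macrophages, measured 364 and 367 CPM in WT and 212 and 218 CPM in KO samples (log2 -0.76, and -0.77 with vehicle). *Tigit*, an inhibitory receptor known from T and NK cells, measured 316 and 302 CPM in WT and 179.6 and 187 CPM in KO samples in libraries in which *Cd3e* had at most 2 counts. *Hipk2*, *Prrc2b*, *Tigit* and *Rnf145* no longer passed 1.5-fold once the trend with gene length had been removed.

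The ligands of CXCR2 were examined next, as known targets of NF-κB. Promoters were taken from RefSeq (GRCm38.p6) as the 250 bases before the start of transcription, and 5 of the 6 ligand genes had an entry. The letters GGAATTTCC, a core of the κB site, were searched on both strands and found in *Cxcl1*, *Cxcl2* and *Cxcl3*. They occur in 0.289% of 27025 promoters of this length, and in 0.327% of the 11001 of genes tested. The promoters of the 3 genes, on the plus strand at chr5:90890995-90891244, chr5:90903649-90903898 and chr5:90785851-90786100, are shown 5′ to 3′ with the match in capitals, as the ligand genes with a match. The match begins 70, 96 and 72 bases before the start, in that order. A match is a description and not a measured binding site. Of the 4 ligand genes called higher below, *Cxcl1* and *Cxcl2* held a match, while *Ppbp* and *Cxcl15* were not among the genes with one.
Cxcl1: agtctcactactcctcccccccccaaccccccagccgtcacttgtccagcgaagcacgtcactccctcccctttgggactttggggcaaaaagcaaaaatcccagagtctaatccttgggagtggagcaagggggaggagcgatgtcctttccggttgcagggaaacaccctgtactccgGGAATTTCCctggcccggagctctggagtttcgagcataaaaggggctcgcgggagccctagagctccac
Cxcl2: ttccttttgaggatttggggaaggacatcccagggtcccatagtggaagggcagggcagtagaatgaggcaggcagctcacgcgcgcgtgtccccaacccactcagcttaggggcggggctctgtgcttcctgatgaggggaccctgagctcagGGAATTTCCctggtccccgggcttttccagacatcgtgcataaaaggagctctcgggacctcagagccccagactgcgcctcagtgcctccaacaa
Cxcl3: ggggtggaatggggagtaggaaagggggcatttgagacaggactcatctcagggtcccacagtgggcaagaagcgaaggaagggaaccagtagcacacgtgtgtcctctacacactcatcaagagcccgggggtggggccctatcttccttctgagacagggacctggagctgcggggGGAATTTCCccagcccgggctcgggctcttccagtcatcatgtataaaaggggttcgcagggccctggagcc

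With NF-κB inhibited, 4 of the 6 CXCR2 ligands were still higher in *Arid1a* KO tumors and none was lower, beside 3.82% and 4.81% of all genes. *Cxcl1* measured 13.0 and 10.003 CPM in WT and 29.7 and 31.2 CPM in KO samples (log2 1.40, standard error 0.087, adjusted p = 3.02e-23). *Cxcl2* measured 2.91 and 3.88 CPM in WT and 9.14 and 9.57 CPM in KO samples (log2 1.47, standard error 0.15, adjusted p = 3.51e-13). The KO samples lay above the WT samples for both genes, and leaving out any 1 JSH-23 library left the log2 fold change between 1.22 and 1.60 for *Cxcl1* and between 1.26 and 1.68 for *Cxcl2*. With vehicle the levels were 37.1 and 36.6 CPM in WT and 146 and 142 CPM in KO samples for *Cxcl1* and 13.3 and 11.7 CPM in WT and 60.9 and 62.6 CPM in KO samples for *Cxcl2*. The genotype effect on *Cxcl2* was smaller with JSH-23 than with vehicle (interaction -0.84 on the log2 scale, adjusted p = 0.000223), as was that on *Cxcl1* by a difference just under 1.5-fold (interaction -0.57, adjusted p = 1.07e-05). *Cxcl3*, whose promoter holds the same letters, had 2 and 0 (WT) and 0 and 0 (KO) counts, so no fold is given with JSH-23; with vehicle it had 5 and 0 (WT) and 21 and 23 (KO) counts.

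*Ppbp*, the precursor of platelet CXCL7, measured 1.51 and 1.94 CPM in WT and 6.48 and 6.59 CPM in KO samples (log2 1.92). *Cxcl15*, a chemokine first known from lung, was at 4.53 and 5.76 CPM in WT and 12.7 and 14.9 CPM in KO samples (log2 1.43). For *Ppbp* the effect was larger with JSH-23 than with vehicle (interaction 0.91, adjusted p = 0.00175). *Cxcl5* measured 24.9 and 25.1 CPM in WT and 25.3 and 30.6 CPM in KO samples, or 0.17 on the log2 scale (adjusted p = 0.0595), and the KO range began above the WT samples by less than the gap between the 2 KO samples.

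Genes for NF-κB itself did not pass. None of the 23 tested factors and regulators was called in either direction with edgeR, although 15 of them had an unadjusted p under 0.05 at a change under 1.5-fold, and none was called with DESeq2. *Nfkbia*, the gene for IκBα, a direct NF-κB target, measured 522 and 526 CPM in WT and 678 and 683 CPM in KO samples (log2 0.38), and *Tnfaip3*, the feedback inhibitor A20, 135 and 133 CPM in WT and 165 and 156 CPM in KO samples (log2 0.26). *Rela*, the gene for p65, measured -0.12 and *Nfkb1* -0.38 on the log2 scale. Immediate early genes, which are induced within minutes of stimulation, gave 3 higher and 0 lower of 16 tested (beside 3.82% and 4.81% of all genes), and with vehicle 9 were higher (beside 7.48%). *Egr1* measured 0.895 and 1.76 CPM in WT and 8.93 and 7.50 CPM in KO samples (log2 2.64, and 2.25 with vehicle) and *Fos* 1.90 and 1.70 CPM in WT and 4.30 and 5.67 CPM in KO samples (log2 1.47, against 2.51). *Atf3*, a stress-induced factor, was at 18.7 and 19.3 CPM in WT and 30.9 and 28.9 CPM in KO samples. The effects on *Fos* and *Atf3* were smaller with JSH-23 than with vehicle (interaction -1.04 and -0.95, adjusted p = 0.000803 and 2.23e-11). *Dusp1*, a phosphatase of MAP kinases, had a log2 fold change of 2.06 with vehicle and of 0.15 with JSH-23 (interaction adjusted p = 4.53e-24).

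Keratins are the structural filaments of epithelial cells. Of 14 tested keratins and other intermediate filament genes, 7 were higher (beside 3.82% of all genes) and 1, *Vim*, was lower in KO tumors with JSH-23, and the median log2 fold change was 0.67 against 0.39 with vehicle. *Krt8*, the type II keratin of luminal cells, measured 33.3 and 32.7 CPM in WT and 98.4 and 103 CPM in KO samples (log2 1.61, standard error 0.054). *Krt7* was at 23.9 and 23.2 CPM in WT and 41.5 and 40.3 CPM in KO samples and *Krt4* at 37.6 and 37.9 CPM in WT and 85.3 and 88.1 CPM in KO samples. *Krt6a*, a keratin of activated epithelium, measured 11.4 and 11.3 CPM in WT and 38.1 and 35.3 CPM in KO samples, and *Krt15*, a basal keratin counted in the basal list below and not among the 14, 7.83 and 7.82 CPM in WT and 28.5 and 28.3 CPM in KO samples. *Krt13*, a keratin of stratified epithelium and another called member, was at 1.68 and 1.52 CPM in WT and 3.21 and 3.51 CPM in KO samples. In each of these genes, and in *Krt19*, the KO samples lay above the WT samples. The genotype effect was larger with JSH-23 than with vehicle for *Krt19* by 1.29, *Krt6a* by 1.41, *Krt15* by 0.87, *Krt4* by 0.69 and *Krt8* by 0.59 on the log2 scale (adjusted p = 1.25e-08 for *Krt15* and lower for the others), and the difference for *Krt7* did not pass (0.14, adjusted p = 0.223). With vehicle the levels of *Krt19* were 40.9 and 36.6 CPM in WT and 103 and 102 CPM in KO samples, so that the WT samples read lower with JSH-23 than with vehicle, a treatment difference that was not tested here. *Krt18*, the partner of *Krt8*, was also called but had 5 and 4 (WT) and 18 and 18 (KO) counts, and the call was lost without WT sample 1, without WT sample 2 or without KO sample 1. Without WT sample 2, which stood apart, 9 genes of the list were higher.

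*Vim*, the intermediate filament of mesenchymal cells, measured 1788 and 1758 CPM in WT and 994 and 986 CPM in KO samples (log2 -0.84, standard error 0.015), and the fall was smaller than with vehicle (log2 -1.09, interaction 0.25, adjusted p = 1.58e-16). Of 9 tested epithelial-mesenchymal genes, 1 was lower, *Vim*, and 1 higher, beside 4.81% and 3.82% of all genes. The higher one was *Snai1*, a repressor of *Cdh1*, with 1 and 1 (WT) and 11 and 23 (KO) counts. As each WT sample had 1 count of it, its level is given only as at least 4.85-fold higher in KO. The neurofilament genes *Nefl* and *Nefm* were not called with JSH-23, and their values rest on the library that stood apart: *Nefl* had 0 and 51 (WT) and 37 and 43 (KO) counts, and with vehicle 0 and 0 (WT) and 52 and 57 (KO). Of 5 tested basal and neuroendocrine markers, *Krt15* and *Trp63*, a basal transcription factor, were higher (beside 3.82% of all genes). *Trp63* was at 0.727 and 0.546 CPM in WT and 0.980 and 1.59 CPM in KO samples with an adjusted p of 0.0484, a call lost without either WT sample or without KO sample 2. Among 13 tested androgen receptor targets and luminal genes, the keratins *Krt8* and *Krt18* were the only genes called, both higher, beside the same share.

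**Figure D3:**
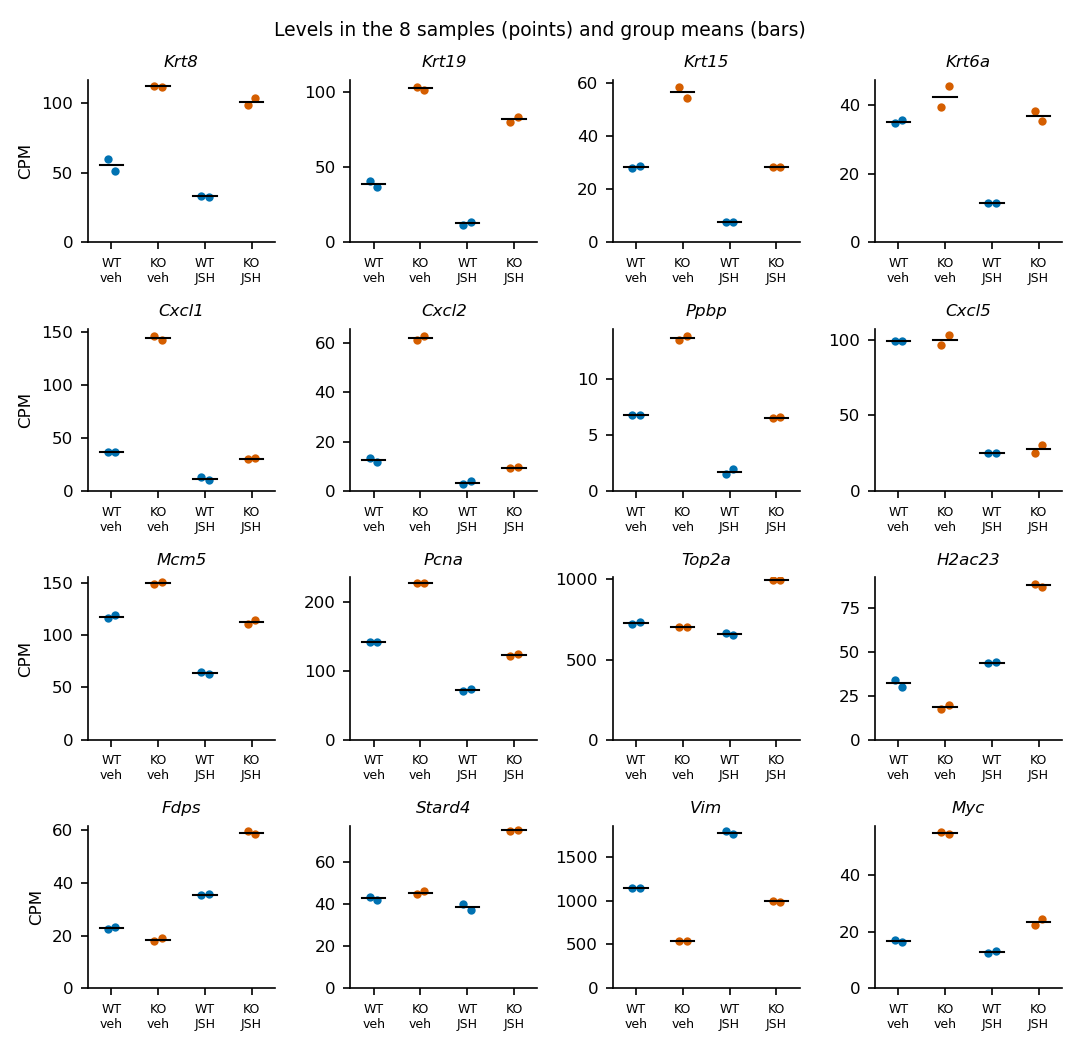
CPM of 16 genes in the 4 groups, each point a sample and each bar the mean of 2, with every axis starting at 0, WT in blue and *Arid1a* KO in orange. For the 4 keratins the WT samples with JSH-23 are the lowest, for *Cxcl1* and *Cxcl2* both JSH-23 groups lie below their vehicle groups with KO above WT, and for *Top2a*, *Fdps* and *Stard4* the KO samples with JSH-23 stand above the other 3 groups.

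Of 20 tested DNA replication genes, 15 were higher and 0 lower with JSH-23 (beside 3.82% and 4.81% of all genes), all 20 log2 fold changes were above 0 with each scaling tried, and their median was 0.63 against 0.39 with vehicle, where 6 were higher (beside 7.48%). *Mcm3*, *Mcm4* and *Mcm5*, parts of the replicative helicase, measured 59.9 and 59.7 CPM in WT and 104 and 108 CPM in KO samples, 31.3 and 33.1 CPM in WT and 64.6 and 60.0 CPM in KO samples and 65.0 and 62.7 CPM in WT and 111 and 114 CPM in KO samples, in that order. The sliding clamp gene *Pcna* was at 69.9 and 72.9 CPM in WT and 121 and 124 CPM in KO samples (log2 0.78, standard error 0.038). *Cdc6*, which loads the helicase, was at 9.18 and 8.67 CPM in WT and 22.5 and 19.8 CPM in KO samples, with the largest change of the list (log2 1.24). In all 5 genes both KO samples exceeded both WT samples. The interaction was called for *Gins1* (0.68, adjusted p = 0.00125) and *Gins2* (0.61, adjusted p = 2.32e-05), helicase cofactors that were not called with vehicle (log2 0.26 and -0.0025). Changes in this list were small enough that the count depended on the scaling and on the spread allowed between samples. With library size alone 8 of 20 were called, and on log2(TPM + 1) 5. A coefficient of variation of 0.2, with TMM factors kept, left 1. The medians stayed at 0.54, 0.42 and 0.63, in that order. Without WT sample 1 the count was 11.

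E2F factors, which drive these genes at the start of S phase, bind letters such as TTTGGCGC and TTTCCCGC. Searched on both strands, either was present in 1.35% of 27025 promoters of 250 bases and in 2.48% of those of genes tested, and in 5 of the 17 replication genes with an entry (*Mcm5*, *Mcm6*, *Mcm7*, *Cdc6* and *Pola1*). The promoters of *Mcm5* (chr8:75109259-75109508, plus strand) and *Mcm6* (chr1:128359706-128359955, minus strand) are shown 5′ to 3′ with the matches in capitals, as examples from the replication list. *Mcm5* holds the reverse complement of TTTGGCGC, and *Mcm6* holds these letters at 2 places.
Mcm5: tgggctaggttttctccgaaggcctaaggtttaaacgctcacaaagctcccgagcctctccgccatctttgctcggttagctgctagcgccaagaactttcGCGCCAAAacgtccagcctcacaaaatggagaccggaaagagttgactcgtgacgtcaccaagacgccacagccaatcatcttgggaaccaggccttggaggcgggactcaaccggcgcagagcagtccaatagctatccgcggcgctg
Mcm6: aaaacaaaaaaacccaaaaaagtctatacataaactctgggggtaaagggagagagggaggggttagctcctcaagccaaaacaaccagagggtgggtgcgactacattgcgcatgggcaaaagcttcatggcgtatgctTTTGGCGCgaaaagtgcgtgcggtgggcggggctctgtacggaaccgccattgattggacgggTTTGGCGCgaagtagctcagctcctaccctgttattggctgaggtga

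Of 18 mitosis genes, 3 were higher with JSH-23 (beside 3.82% of all genes), *Top2a*, *Aurkb* and *Birc5*, and the median was 0.31 against -0.031 with vehicle. *Top2a*, topoisomerase IIα, measured 667 and 655 CPM in WT and 994 and 997 CPM in KO samples, a difference of 1.505-fold. DESeq2 did not call *Top2a*, as its log2 fold change of 0.5836 there fell just short of 1.5-fold (DESeq2 adjusted p = 9.09e-168). With vehicle its log2 fold change was -0.047 (interaction 0.64, adjusted p = 5.12e-35). *Myc*, the driver of the line, measured 12.5 and 13.3 CPM in WT and 22.4 and 24.4 CPM in KO samples (log2 0.87), and its effect was smaller than with vehicle (log2 1.70, interaction adjusted p = 3.66e-08). The other 10 tested genes of the MYC, MAX and MondoA network were not called, among them *Txnip*, a brake on glucose uptake, at -0.061 with JSH-23 and 1.05 with vehicle. None of 15 tested G1 cyclins and CDK inhibitors was called with edgeR, and 11 had an unadjusted p under 0.05.

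For 314 of the 1202 genes called with JSH-23 the effect of genotype differed from that with vehicle, and for 185 with DESeq2, 27 in a test against 1.5-fold and 12 at a coefficient of variation of 0.2. Of the 709 genes that were called with JSH-23 and not with vehicle, this held for 240, by the test of the interaction (1.5-fold and adjusted p under 0.05, met by 9.04% of all genes tested). The 1202 and the 709 genes were picked on values that enter this test, which favours a called interaction. Their shares therefore cannot be set against that of all genes. Among the genes that averaged at least 5 CPM, *Rn7s1* and *Rn7s2*, which encode 7SL RNA, the RNA of the signal recognition particle, had the largest positive difference. *Rn7s2* measured 581 and 469.7 CPM in WT and 2122 and 1999 CPM in KO samples, and 532 and 395 CPM in WT and 399 and 332 CPM in KO samples with vehicle. The 2 genes are near-identical copies, and reads may have been split between them. *Mycbp*, a binding partner of MYC, measured 5.82 and 4.61 CPM in WT and 12.1 and 10.3 CPM in KO samples (interaction 1.10), and *Prkg2*, a cGMP-dependent kinase, 76.7 and 71.96 CPM in WT and 119 and 121 CPM in KO samples (interaction 1.05). The largest negative difference was that of *Mmp28*, the matrix protease epilysin, which measured 11.3 and 10.2 CPM in WT and 3.10 and 2.88 CPM in KO samples and, with vehicle, 5.33 and 4.04 CPM in WT and 5.397 and 4.77 CPM in KO samples (interaction -1.96, adjusted p = 2.23e-10). *Gramd1b*, a carrier of cholesterol from the plasma membrane, measured 28.3 and 28.4 CPM in WT and 14.1 and 13.3 CPM in KO samples, against 31.6 and 29.5 CPM in WT and 38.1 and 39.2 CPM in KO samples with vehicle. *Rap1gap*, a brake on the GTPase RAP1, fell 2.69-fold, *Slc27a3*, an acyl-CoA synthetase, 2.31-fold, and the Notch ligand gene *Jag2* 2.28-fold, each within 0.136 of 0 on the log2 scale with vehicle.

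Cholesterol synthesis genes stood above 0 as a list: all 22 tested had a log2 fold change over 0 (20 with library size alone and 18 on log2(TPM + 1)). Their median was 0.40 against -0.027 with vehicle, although only 4 were called, all of them higher (beside 3.82% of all genes). These were *Fdps*, *Lss* and *Msmo1*, enzymes of the pathway, and *Stard4*, a sterol carrier. *Fdps* measured 35.3 and 35.9 CPM in WT and 59.5 and 58.4 CPM in KO samples, and 22.6 and 23.3 CPM in WT and 18.1 and 18.9 CPM in KO samples with vehicle (interaction 1.04, adjusted p = 1.58e-13). *Stard4* was at 40.0 and 37.1 CPM in WT and 74.5 and 75.0 CPM in KO samples (log2 0.95, and 0.090 with vehicle). The interaction was called for 8 of the 22 genes, beside 9.04% of all genes tested.

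In 32 genes the genotype effect was called in both treatments with opposite signs, 10 of them higher and 22 lower in KO with JSH-23. The 5 with the largest difference, *TrnR*, *AW112010*, *Adcy5*, *Mefv* and *H2ac24*, were at most 2.29 CPM in every JSH-23 sample, and each lost its call when at least 1 library was left out. Better expressed were *Trp53inp1*, a p53 target that promotes autophagy, and *H2ac23* and *Ccn2*, both chosen after their values had been seen. *Trp53inp1* measured 75.3 and 73.4 CPM in WT and 44.6 and 52.0 CPM in KO samples with JSH-23 and 56.6 and 60.3 CPM in WT and 87.2 and 89.5 CPM in KO samples with vehicle. Its fall with JSH-23 was near the 1.5-fold limit (log2 -0.62) and did not pass the test against 1.5-fold. It was short of 1.5-fold without KO sample 1 (log2 -0.51) and after the trend with gene length had been removed (log2 -0.55). *H2ac23*, a histone H2A gene, measured 43.4 and 44.1 CPM in WT and 88.6 and 86.9 CPM in KO samples, and 34.1 and 29.9 CPM in WT and 17.5 and 19.7 CPM in KO samples with vehicle. *Ccn2*, a matricellular target of YAP and TGF-β, measured 11.4 and 10.7 CPM in WT and 21.2 and 19.9 CPM in KO samples, and 53.6 and 51.4 CPM in WT and 24.6 and 25.5 CPM in KO samples with vehicle. KO exceeded WT for *H2ac23* and *Ccn2* with JSH-23 and lay below it with vehicle, and the reverse held for *Trp53inp1*.

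Lower genes were found in lists of matrix, interferon and cytokine genes, mostly at low counts. Of 27 tested extracellular matrix genes, 7 were lower and 0 higher in KO tumors with JSH-23, beside 4.81% and 3.82% of all genes (median -0.39, and -0.27 with vehicle), and DESeq2 called 1. Fibrillar collagen genes measured 3.02 and 3.39 CPM in WT and 2.34 and 1.73 CPM in KO samples (*Col1a1*), 2.52 and 2.18 CPM in WT and 1.31 and 0.240 CPM in KO samples (*Col1a2*) and 3.13 and 2.42 CPM in WT and 1.14 and 0.769 CPM in KO samples (*Col3a1*). These 3 genes are also made by fibroblasts, and *Col1a1* and *Col3a1* are themselves among the 7 fibroblast markers checked. The 7 summed to 61.2 and 59.7 CPM in WT and 42.6 and 41.8 CPM in KO samples. Most of that sum was *Pdgfra*, at 54.3 and 53.1 CPM in WT and 38.3 and 38.6 CPM in KO samples (log2 -0.48, not called). *Dcn* went the other way, at 0.448 and 0.606 CPM in WT and 0.544 and 0.721 CPM in KO samples (log2 0.28, not called, groups overlapping). *Pdgfrb* and *Lum* had at most 4 counts in each of these libraries, and *Thy1* had 0. The part of fibroblasts in the result was not tested. *Col3a1* alone of the 3 stayed called without each library in turn. *Thbs1*, the gene for thrombospondin 1, had 36 and 2 (WT) and 2 and 0 (KO) counts, so that the level of the KO group was at or under 3 counts. Its call rested on WT sample 1, without which the log2 fold change was -1.15 (adjusted p = 0.605). *Tnc*, a matrix protein of wounds, had 16 and 0 (WT) and 1 and 0 (KO) counts, and *Mmp14*, the membrane-type protease and the only called gene of 14 tested in a list of matrix proteases and inhibitors that did not hold *Mmp28*, had 25 and 1 (WT) and 4 and 2 (KO) counts. Both lost their calls without WT sample 1 and without KO sample 2. The list had 2 lower genes without KO sample 2 and 3 without WT sample 1.

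Of 19 tested interferon-stimulated genes, 5 were lower and 0 higher, beside the same shares. *Parp14*, an ADP-ribosyltransferase, measured 11.7 and 11.8 CPM in WT and 5.28 and 6.06 CPM in KO samples (log2 -1.04, standard error 0.13, and -0.35 with vehicle), with an interaction of -0.69 (adjusted p = 0.000375). The others, *Irf7*, *Ifit1*, *Mx1* and *Rsad2*, each lost its call without WT sample 1, which left 1 lower and 1 higher gene in the list, and without 1 or more KO samples. *Irf7*, a master regulator of interferon responses, had 62 and 32 (WT) and 23 and 37 (KO) counts, and *Rsad2*, an antiviral enzyme, 23 and 2 (WT) and 2 and 7 (KO) counts. All 4 genes were higher in WT sample 1 than in WT sample 2, as the myeloid markers above were. The part of those cells in the result was not tested, and fewer cells of a type cannot be told apart from less RNA per cell. Of 13 tested cytokine and colony-stimulating factor genes, 3 were lower (beside 4.81% of all genes). *Csf1*, the growth factor of macrophages, measured 29.5 and 34.8 CPM in WT and 21.1 and 20.1 CPM in KO samples (log2 -0.64, and -0.25 with vehicle), short of 1.5-fold without WT sample 2 (log2 -0.53). *Il18* was at 1.68 and 2.30 CPM in WT and 0.762 and 0.961 CPM in KO samples, and its call was lost without WT sample 2. *Il1b* had 13 and 6 (WT) and 1 and 1 (KO) counts, at least 3.74-fold lower in KO, a call lost without WT sample 1. *Csf3*, called higher with vehicle, measured 0.560 and 1.03 CPM in WT and 1.31 and 1.298 CPM in KO samples with JSH-23 (adjusted p = 0.0872), and *Tnf* had 4 and 1 (WT) and 3 and 0 (KO) counts, with no fold given. Of 8 tested other chemokines, *Ccl28* (4.70 and 4.30 CPM in WT and 2.88 and 2.31 CPM in KO samples) and *Cxcl9* (8 and 1 (WT) and 0 and 0 (KO) counts) were lower, and *Cxcl9* lost its call without WT sample 1 and without either KO sample.

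**Figure D4:**
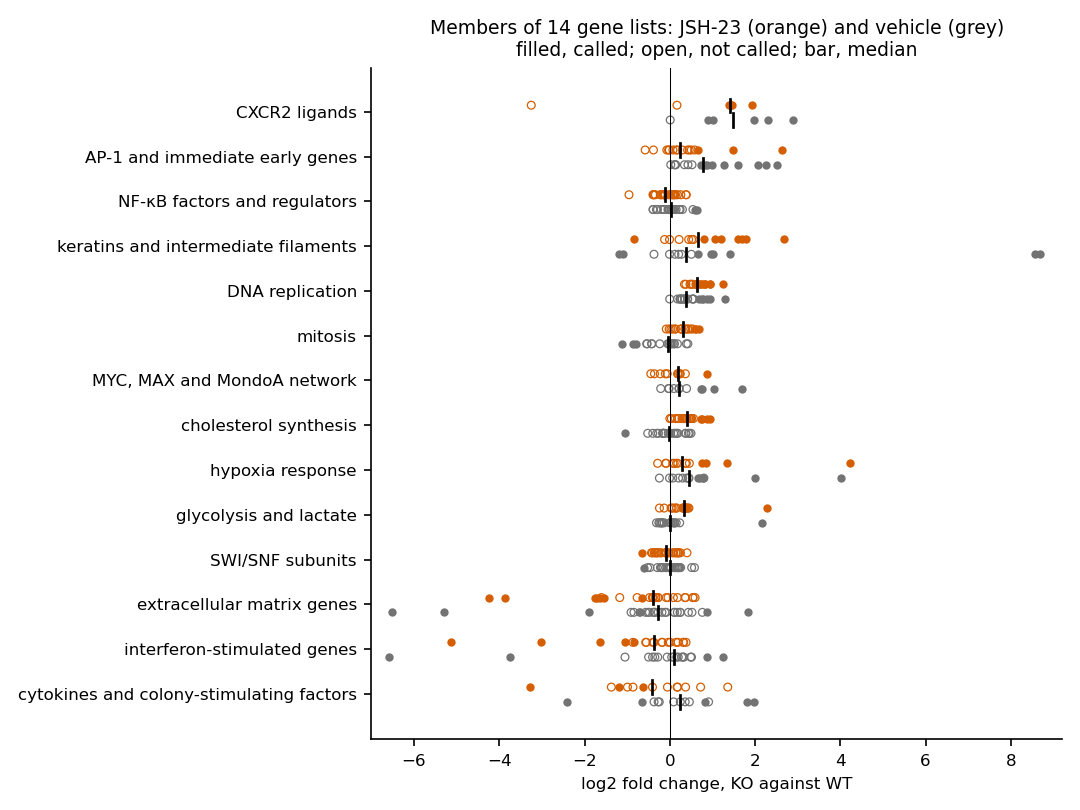
Log2 fold change of *Arid1a* KO against WT for the tested members of 14 gene lists, with JSH-23 in orange and vehicle in grey, filled points called and open points not called, and a bar at each median. Values beyond 4 on either side belong to genes with few counts, *Thbs1*, *Tnc*, *Mx1*, *Car12*, *Nefl* and *Nefm*.

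In the glycolysis and lactate list 1 of 19 genes was higher with JSH-23, a share near the 3.82% of all genes. It was *Slc16a3*, the lactate exporter MCT4, which measured 0.727 and 0.788 CPM in WT and 3.86 and 3.61 CPM in KO samples (log2 2.29, and 2.15 with vehicle), beside a list median of 0.33. Of 14 tested hypoxia genes 4 were higher and 0 lower. *Higd1a*, a mitochondrial protein induced by low oxygen, measured 94.5 and 90.1 CPM in WT and 163 and 167 CPM in KO samples, *Adm*, the vasodilator adrenomedullin, 1.45 and 1.70 CPM in WT and 4.08 and 3.89 CPM in KO samples, and the carbonic anhydrase gene *Car9* 7.83 and 7.15 CPM in WT and 11.9 and 13.2 CPM in KO samples. *Car12* had 1 and 2 (WT) and 33 and 36 (KO) counts, a level at least 10.03-fold higher in KO. The interaction was called for none of these 4 genes.

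In the signalling lists 1 to 4 genes each were called, beside 3.82% of all genes higher and 4.81% lower, so that several of the counts below lie near these shares. Of 15 tested Wnt genes, the ligands *Wnt4* (142 and 160.4 CPM in WT and 95.7 and 92.0 CPM in KO samples) and *Wnt5a* (46.9 and 46.1 CPM in WT and 26.2 and 26.5 CPM in KO samples) and the receptor *Fzd6* (50.6 and 50.4 CPM in WT and 30.4 and 31.2 CPM in KO samples) were lower, and *Tcf7*, a nuclear effector, was higher at 1.79 and 0.909 CPM in WT and 2.88 and 2.74 CPM in KO samples, a call lost without WT sample 2. Of 18 TGF-β and BMP genes, the BMP targets *Id1* (39.4 and 36.9 CPM in WT and 84.4 and 83.1 CPM in KO samples, log2 1.13 against 0.32 with vehicle) and *Id3* (14.5 and 15.1 CPM in WT and 23.1 and 22.8 CPM in KO samples) were higher. The retinoid list gave *Aldh1a3*, which makes retinoic acid, higher (6.10 and 6.24 CPM in WT and 11.5 and 9.86 CPM in KO samples) and *Cyp26b1*, which degrades it, lower (1.57 and 1.88 CPM in WT and 0.708 and 0.625 CPM in KO samples) among 10 tested. Of 16 p53 targets *Btg2*, an antiproliferative gene, was higher (15.6 and 16.1 CPM in WT and 31.3 and 29.3 CPM in KO samples) and *Trp53inp1* lower. In MHC class I presentation, the non-classical gene *H2-T23* was lower (10.02 and 8.97 CPM in WT and 5.77 and 4.90 CPM in KO samples) and the immunoproteasome subunit gene *Psmb8* higher (3.47 and 2.91 CPM in WT and 5.44 and 4.66 CPM in KO samples) of 14 tested, and *Psmb8* lost its call without WT sample 2 and without KO sample 1. Of 11 integrins, *Itgb4* and *Itgb6*, partners in epithelial adhesion, were higher at 0.0332 and 0.0392 (adjusted p), and neither was called by DESeq2. *Itgb4* lost its call without WT sample 2 or KO sample 2, and *Itgb6* without any 1 of the 4 libraries. *Sdc3* was the only called gene of 5 tested syndecans and glypicans. No gene was called with edgeR among 14 fatty acid synthesis genes, 8 immune checkpoint ligands, 15 NRF2 targets, 10 PRC2 genes, 15 receptor tyrosine kinases and 18 genes of the unfolded protein and integrated stress responses, although 59 of these 80 had an unadjusted p under 0.05 and DESeq2 called 0. In the last of these lists 9 genes were higher in KO with vehicle (beside 7.48% of all genes).

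The KO libraries with JSH-23 also differed in the make-up of their RNA. *Rn7s1* and *Rn7s2* together took 2712 and 2555 CPM in the KO samples against 737 and 603 CPM in the WT samples, and between 427 and 693 CPM in the vehicle groups. Histone genes of the clusters, whose transcripts lack a poly(A) tail, summed to 176 and 176 CPM in KO and 112 and 106 CPM in WT samples. Of 20 tested, 5 were called higher with JSH-23 (beside 3.82% of all genes), whereas with vehicle 7 were lower in KO (beside 5.17%). Genes higher in KO were shorter (median length 2553 bases) and lower genes longer (4353) than all genes tested (3459). In eighths of the 10109 genes by length, the median log2 fold change with JSH-23 went from 0.20 in the shortest to -0.13 in the longest, while with vehicle it lay between -0.055 and -0.0034 in every eighth. After this trend had been removed from each sample, a step chosen after the values had been seen, 498 genes were higher and 687 lower, and the replication, keratin and CXCR2 ligand lists had 14, 8 and 4 higher genes. The part of RNA selection in these results was not tested.

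**Figure D5:**
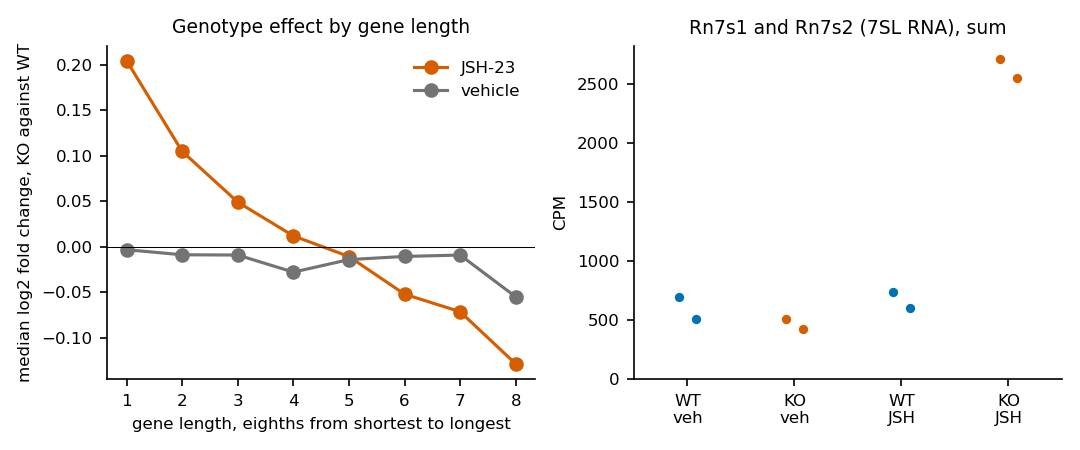
Left, median log2 fold change of *Arid1a* KO against WT in eighths of genes by length, with JSH-23 in orange and vehicle in grey. Right, summed CPM of *Rn7s1* and *Rn7s2* in each sample, in which both KO samples with JSH-23 lie at 2555 CPM or above and all others at 737 CPM or below.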

How the data were processed

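Sorted tumor cells of 8 samples were sequenced. The authors aligned reads to GRCm38/mm10 and deposited counts per gene from strand-specific HTSeq counting beside TPM values; the study's methods name TopHat2 and the submitters' processing notes HISAT2, so the aligner is uncertain. Low counts and genes with near-identical copies carry that uncertainty. The deposited counts of 39089 genes were filtered with filterByExpr (13921 kept), scaled with TMM factors and tested with edgeR 4.0.16 (R 4.3.3) quasi-likelihood fits over all 8 samples in 4 groups, with Benjamini-Hochberg adjustment. A call required 1.5-fold and an adjusted p under 0.05. The deposited TPM values served limma 3.58.1 as alternatives on a log2 scale, after a pseudocount of 1 or 0.1, and DESeq2 1.42.0 was another. The fit was tested on simulated counts. Levels at or under 3 counts in both samples of a group gave lower bounds of fold.

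Named genes were *Arid1a*; the 12 largest rises and falls among called genes with samples that did not overlap and a mean of at least 5 CPM; the 6 most abundant called genes in each direction; the 5 largest differences among genes called in opposite directions; the 5 largest interactions in each direction among genes not called with vehicle; and members of 33 gene lists. Symbols of predicted genes were passed over. The genes, lists and markers were chosen with earlier results of these data known. Some members of the lists and markers are not reported here. Promoters of 27025 genes came from RefSeq (GRCm38.p6). Libraries with the same replicate number did not deviate together.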

Additional observations from a re-analysis of the deposited data

Results flagged for a closer look

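The genotype effect with JSH-23 minus that with vehicle passed the interaction test (1.5-fold, adjusted p under 0.05, edgeR) for the genes below, given as log2 differences. The gap of single samples from their group was not tested per gene, as a group held 2 samples. Among keratins and epithelial genes the difference was 1.29 for *Krt19*, 1.41 for *Krt6a*, 0.87 for *Krt15*, 0.69 for *Krt4*, 0.59 for *Krt8*, 0.76 for *Crisp1* and -0.95 for *Plet1*. In DNA replication, mitosis and chromatin it was 0.68 for *Gins1*, 0.61 for *Gins2*, 0.64 for *Top2a*, 0.72 for *H1f0*, 1.78 for *H2ac23*, 2.70 for *H2ac24* and 0.70 for *Dpf1*. For cholesterol genes it was 1.04 for *Fdps*, 0.63 for *Lss* and 0.86 for *Stard4*. The chemokine genes *Cxcl2* and *Ppbp* differed by -0.84 and 0.91, and the inducible genes *Fos*, *Atf3*, *Dusp1*, *Myc* and *Txnip* by -1.04, -0.95, -1.91, -0.84 and -1.11. The 7SL genes *Rn7s1* and *Rn7s2* had 2.40 and 2.31.

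Further positive differences were 1.67 for *Map7d2*, 1.96 for *Ccn2*, 1.10 for *Mycbp*, 1.05 for *Prkg2* and 0.82 for *Id1*. Negative differences were -1.96 for *Mmp28*, -1.39 for *Gramd1b*, -1.29 for *Rap1gap*, -1.25 for *Slc27a3*, -1.24 for *Jag2*, -1.21 for *Trp53inp1*, -0.96 for *Ptpn22* and -0.69 for *Parp14*. The difference was 4.76 for *TrnR*, -4.32 for *AW112010*, -3.47 for *Adcy5* and -2.90 for *Mefv*, genes with few counts.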

How the results depend on the processing

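The counts of calls depended most on how large a spread between tumors was allowed, since 2 samples per group with a very small spread cannot show variation between animals. A biological coefficient of variation of 0.2 gave 126 higher and 130 lower genes (49.2% higher), 69 higher and 59 lower with both treatments, 2 with opposite signs and 12 with a called interaction, which was called for 203 at a coefficient of 0.1. A test against 1.5-fold gave 156 and 148 (51.3%), 77 and 61 with both, 3 and 27. A 2-fold threshold gave 225 and 261, 112 and 79 with both, 10 and 105. A mean of at least 10 CPM left 199 and 262, 89 and 81 with both, 8 and 121. On log2(TPM + 1), 168 were higher (15.9%) and 101 in both; on log2(TPM + 0.1), 266 higher and 1400 lower (16.0%), 157 higher in both, 60 opposite and 603 with an interaction. Library size alone gave 29.7% higher. DESeq2 gave 19 opposite genes and 185 with an interaction, and an unadjusted p gave 50 opposite genes. These causes were not tested.

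Leaving out each sample in turn gave 472 to 527 higher and 580 to 694 lower genes (40.7 to 45.9% higher), 223 to 248 and 171 to 223 with both treatments, 24 to 36 opposite and 273 to 353 with an interaction. Calls kept without each JSH-23 sample numbered 605 of 1202. Of the 120 called genes followed by name, 44 kept direction and call under the alternatives followed. These left out the coefficient of 0.1 and the fits without a vehicle sample. A gene that a setting did not test was not counted as lost there. Without WT sample 1 with JSH-23 the log2 fold change turned for *Tnc* (2.25, range -6.10 to 2.25), *Mmp14* (1.24, range -3.14 to 1.24) and *Rsad2* (0.87, range -2.65 to 0.87), none of them past the test, and was 0 for *Mx1* (range -6.08 to 0). The correlation of deviations between samples with the same replicate number lay between -0.096 and 0.040, so the numbers were not used to pair samples. With the replicate number as a block 527 genes were higher and 663 lower, 1182 of them called without it, and of the genes followed only *Trp63* lost its call. After the length trend had been removed, an alternative chosen after seeing the data, 498 genes were higher and 687 lower.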

Other observations

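Of the other called cluster histone genes, which code for the core and linker histones made in S phase, *H1f4* measured 1.34 and 1.76 CPM in WT and 2.56 and 3.12 CPM in KO samples, *H2ac8* 1.12 and 1.64 CPM in WT and 2.56 and 2.16 CPM in KO samples and *H3c3* 0.448 and 0.303 CPM in WT and 1.20 and 1.15 CPM in KO samples with JSH-23. All 3 lie on chromosome 13 and rested on between 5 and 65 counts per sample. The linker histone gene *H1f0*, which lies outside the clusters and has a polyadenylated transcript, measured 550.1 and 544 CPM in WT and 888 and 902 CPM in KO samples (log2 0.71, and -0.0055 with vehicle).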
